A study of Mus musculus with 3 samples.

Results

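The cells described here are dividing neutrophil precursors that already carry transcripts of secondary granule proteins, found among cells of the intervertebral disc preparation of young mice. They were chosen by 2 rules on their own transcripts. Camp, Ngp and Ltf together had to make up at least 1% of the unique molecular identifiers (UMIs, the counted transcripts) of a cell barcode, and at least 2 of the 4 division genes Mki67, Top2a, Birc5 and Ccnb2 had to have a UMI. Of 26898 barcodes that passed filters (500 or more genes, mitochondrial UMIs up to 15%), 3285 met both rules, 686, 1299 and 1300 in libraries 1, 2 and 3. All animals were untreated postnatal day 30 mice carrying shh-cre and the R26R-tdTomato reporter, and all 3 libraries belong to this 1 group. Cre at Shh marks cells that express Shh, and their descendants, with tdTomato. Lumbar, thoracic and caudal discs were cut out through the bony endplates of the vertebrae, digested with collagenase and sorted for tdTomato, and each library pooled litter-matched animals. The study used 10x Genomics 3' chemistry to find nucleus pulposus cells, so the precursors come from outside its target, and tdTomato itself was not measured in the tables used here. Shh had 3 UMIs in all 3285 precursors, all of them in library 1. The libraries held 64695292, 145925353 and 137188648 UMIs over all 7430, 11767 and 11032 deposited barcodes. Libraries 2 and 3 shared 224 barcode sequences, libraries 1 and 3 shared 29 and libraries 1 and 2 shared 24, and leaving them out moved no count of calls by over 1.5 times. Each library is a pool of animals. The p-values below weigh a difference within libraries against how much that difference varies over 3 pools, except where given without the library block. That variation is estimated partly from all genes together, not from each gene alone. SEs of log2 fold changes are worked back from the test statistic.

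Neutrophils are made in bone marrow in a fixed order. Promyelocytes fill primary (azurophil) granules with myeloperoxidase and serine proteases, myelocytes then make secondary (specific) granules with lactoferrin, cathelicidin and neutrophilic granule protein while still dividing, and metamyelocytes stop dividing and make gelatinase granules. C/EBPε, encoded by Cebpe, is the transcription factor that secondary granule genes depend on, and C/EBPα and Gfi1 act around the earlier steps. Cdk4 and Cdk6 with D-type cyclins drive cells out of G1, and the INK4 proteins encoded by Cdkn2c and Cdkn2d inhibit them.

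Promoter sequences of genes picked from both classes that define the cells are shown first, because the precursors run both programmes at once. The letters lie upstream of the annotated gene start (GRCm38.p6, RefSeq promoter table), read 5′ to 3′ on the gene's strand. Capitals in the first 3 mark TTGCNNAA, a common form of the C/EBP site, on either strand. The Ngp stretch is chr9:110419558-110419746 (+), the Ltf stretch chr9:111019042-111019270 (+) and the Fcnb stretch chr2:28084886-28085128 (-).
Ngp: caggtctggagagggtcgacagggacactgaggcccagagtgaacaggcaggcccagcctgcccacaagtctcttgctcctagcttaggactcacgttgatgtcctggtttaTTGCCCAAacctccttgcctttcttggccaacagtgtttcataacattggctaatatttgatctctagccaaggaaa
Ltf: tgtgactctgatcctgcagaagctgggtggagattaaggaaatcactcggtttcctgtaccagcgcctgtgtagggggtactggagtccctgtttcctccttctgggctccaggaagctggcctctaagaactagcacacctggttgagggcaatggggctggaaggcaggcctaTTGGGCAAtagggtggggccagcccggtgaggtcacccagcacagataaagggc
Fcnb: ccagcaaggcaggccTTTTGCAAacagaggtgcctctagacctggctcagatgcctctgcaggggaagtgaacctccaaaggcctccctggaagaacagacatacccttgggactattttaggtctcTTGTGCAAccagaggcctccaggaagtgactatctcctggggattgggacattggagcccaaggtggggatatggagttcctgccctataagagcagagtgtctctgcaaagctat
Capitals in the next pair mark CCAAT, the letters that NF-Y binds, on either strand, for Ccnb2 at chr9:70421555-70421804 (-) and Top2a at chr11:99024190-99024439 (-).
Ccnb2: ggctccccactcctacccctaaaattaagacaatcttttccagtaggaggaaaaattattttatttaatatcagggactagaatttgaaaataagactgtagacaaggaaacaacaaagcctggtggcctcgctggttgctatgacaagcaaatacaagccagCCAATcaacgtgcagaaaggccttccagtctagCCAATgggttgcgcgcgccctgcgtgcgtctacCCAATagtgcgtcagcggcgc
Top2a: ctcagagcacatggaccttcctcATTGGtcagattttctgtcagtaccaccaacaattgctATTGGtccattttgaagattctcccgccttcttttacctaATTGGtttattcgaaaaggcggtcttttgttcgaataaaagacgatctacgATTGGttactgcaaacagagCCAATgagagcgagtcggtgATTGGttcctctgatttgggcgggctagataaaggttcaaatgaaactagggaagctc
Ngp and Ltf each held 1 match to TTGCNNAA and Fcnb held 2, and the match in Ltf shared 4 bases with a CCAAT on the reverse strand. CCAAT was thus not confined to the division genes shown, with 1 match in Ngp, 1 in Ltf and 2 in Fcnb. Ccnb2 held 3 matches to CCAAT and Top2a held 6, and neither held TTGCNNAA. In the 250 bases before the RefSeq start, TTGCNNAA was found in 10.8% of 27025 genes, in 6 of 14 secondary granule genes with an entry (Anxa1, Fcnb, Lcn2, Ltf, Mmp8 and Ngp), in 0 of 10 primary granule genes and in 0 of 29 genes of the G2 and M phases. It was also found in 2 of 8 gelatinase granule genes and in 3 of 23 S phase genes. CCAAT was found in 37.5% of all genes, in 23 of the 29 G2 and M genes and in 5 of the 14 secondary granule genes. Camp, a gene of the rule that is not shown, held neither TTGCNNAA nor CCAAT in those bases. TTTGAA, the core of the cell cycle homology element, was found in 18.3% of all genes and in 10 of the 29 G2 and M genes. A match describes the letters only, and binding was not measured.

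The precursors made up 11.97% of the kept barcodes in library 1 (95% Clopper-Pearson interval 11.1 to 12.8), 12.04% in library 2 (11.4 to 12.7) and 12.5% in library 3 (11.9 to 13.2), a mean of 12.2% ± 0.307 (SD, n = 3). Among barcodes of 5000 to 20000 UMIs the shares were 13.1%, 8.71% and 13.8%, a mean of 11.88% ± 2.77. They were 44.6%, 52.0% and 53.4% of all barcodes with secondary granule transcripts in libraries 1, 2 and 3. Intervals cover counting error only. The share with a division gene depends on depth: after thinning every barcode to 2000 UMIs and applying both rules again, the same shares were 20.3%, 30.1% and 29.6%. All 4 division genes were seen in 2343 of the precursors, 3 in 669 and 2 in 273. The median precursor had 19769.5, 22059 and 19978.5 UMIs in libraries 1, 2 and 3, and 3116.5, 3106 and 3050 genes.

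At the edges of the rule, 73 members had a secondary granule share of 1% to 1.5%, with a median primary granule share (Mpo, Elane, Prtn3 and Ctsg) of 3.54%, and 84 dividing barcodes just outside, at 0.5% to 1%, had 3.34%. Members with exactly 2 division genes had a median of 11839 UMIs, and the 528 barcodes with secondary granule transcripts and exactly 1 division gene had 9134.5.

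The label was checked against its markers. Camp (chr9:109847379-109849617), the cathelicidin gene, and Ngp (chr9:110419747-110423012) ranked 3 and 4 by abundance among transcripts outside the mitochondrial and ribosomal protein genes. Camp stood at 53235, 51250 and 46423 UMIs per 1000000 UMIs of the summed cells (CPM) in libraries 1, 2 and 3, and Ngp at 35674, 37491 and 43778 CPM. UMIs of this kit count transcript ends, so levels of different genes are not scaled by length. S100a8 and S100a9, the subunits of calprotectin, led with 133350 ± 7002 and 131831 ± 5575 CPM (SD, n = 3), 13.3% and 13.2% of all UMIs. Mki67 averaged 312 ± 28.8 CPM and Top2a 274 ± 39.9 CPM. Camp, Ngp, Mki67 and Top2a are in the rule, so their levels are descriptions. Fcnb lies outside the rule. It encodes ficolin B, a lectin of the complement system, and averaged 1112 ± 222 CPM.

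Fcnb was highest in the precursors along the neutrophil series. It lies at chr2:28076378-28084885. Its level was 287 ± 61.0 CPM in dividing promyelocytes, 1112 ± 222 in the precursors, 147 ± 39.7 in non-dividing cells with secondary granules and 8.03 ± 3.51 in mature neutrophils (SD, n = 3 libraries each). Promyelocytes here are barcodes with Mpo, Elane, Prtn3 and Ctsg at 1% or more, secondary granule transcripts under 1% and at least 2 division genes (1535 barcodes). The non-dividing cells meet the secondary granule rule with 0 of the 4 division genes (2661 barcodes), and mature neutrophils have neither but have S100a8 and S100a9 at 2% or more and a UMI of Cxcr2 (845 barcodes). Thinned to 5000 UMIs a cell, 86.6% ± 1.51 of the precursors had a UMI of Fcnb, 24.3% ± 1.49 of the non-dividing cells and 41.5% ± 4.75 of the promyelocytes. In dividing B lineage cells, which should lack the gene, 1.29% ± 1.12 had one. Thinning left out 109 precursors below 5000 UMIs, against 575 non-dividing cells, 22 promyelocytes and 383 B lineage cells. Unthinned, a UMI of Fcnb was seen in 92.9% of the precursors and 2.6% of the B lineage cells, which had median depths of 6312.5, 8422 and 7347 UMIs.

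**Figure D1:**
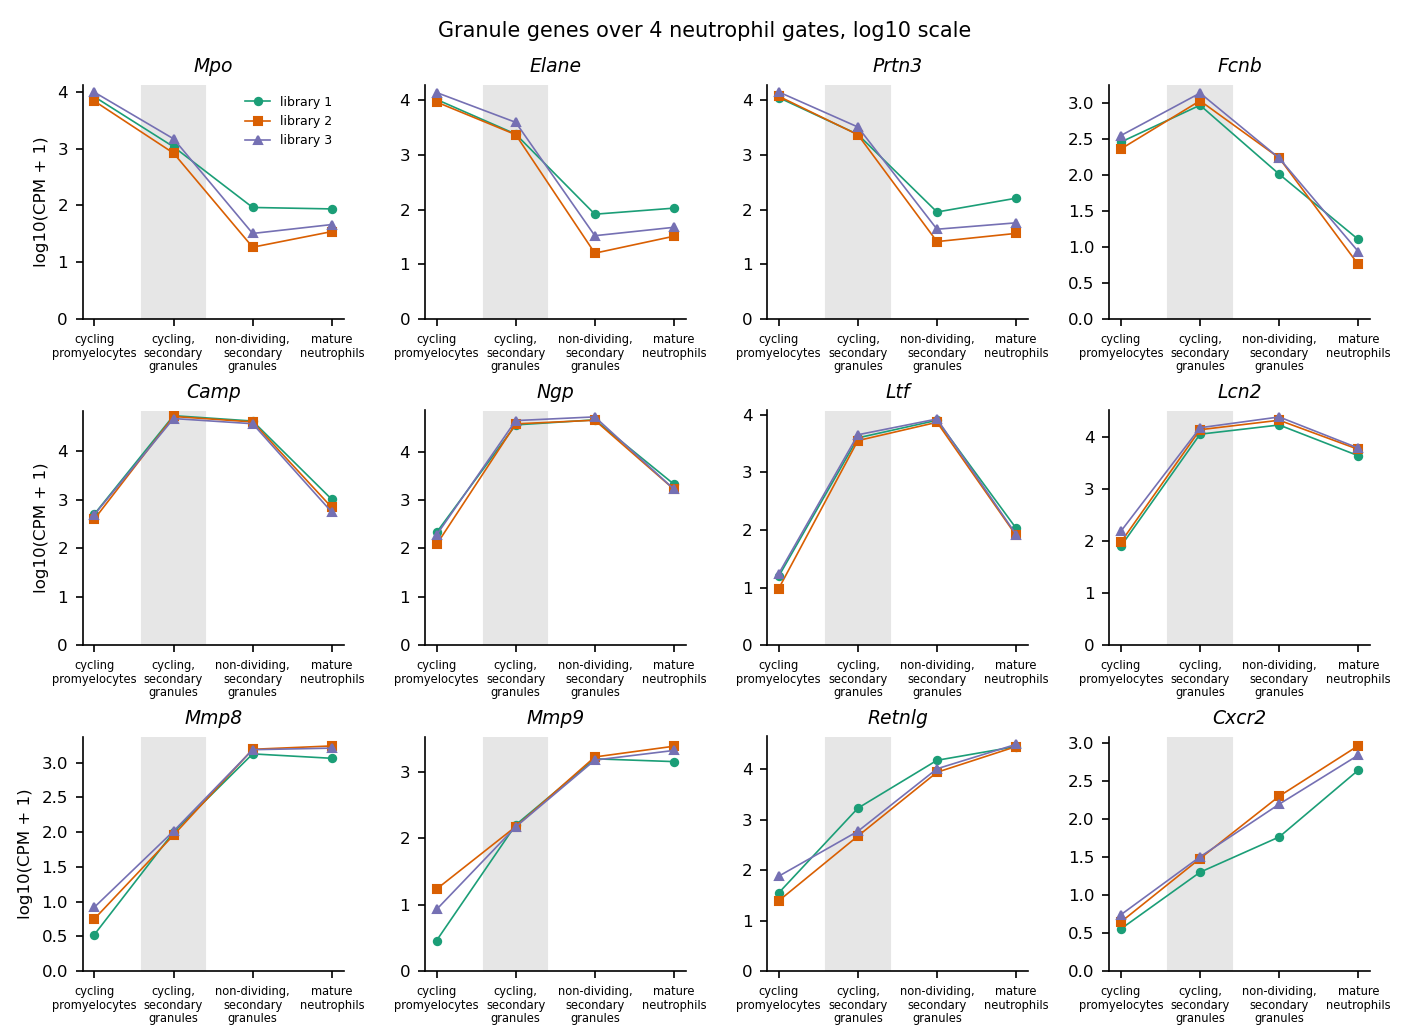
Levels of 12 granule and maturation genes along the neutrophil series, as log10(CPM + 1) of summed cells per library (points, 3 libraries) in dividing promyelocytes, dividing precursors with secondary granules, non-dividing cells with secondary granules and mature neutrophils. Mpo, Elane and Prtn3 are highest on the left, Mmp8, Mmp9, Retnlg and Cxcr2 on the right, and Fcnb is highest in the precursors, between 921 and 1356 CPM.

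Against non-dividing cells that hold the same granule transcripts, the precursors had more summed primary granule RNA, more ribosome biogenesis RNA and less RNA of every later granule class. The 12 primary granule genes summed to 16121 ± 3375 CPM in precursors at or below their library's median secondary granule share and 2480 ± 337 CPM in those above it, against 2253 ± 1273 CPM in the non-dividing cells (SD, n = 3 libraries each). Precursors above the median and non-dividing cells differed in that sum by less than the spread between the non-dividing libraries. All counts from here on rest on edgeR's quasi-likelihood test on UMIs summed per library, with the library as a block and Benjamini-Hochberg adjusted p under 0.05 over all genes tested. Of 11002 genes, 61.4% passed, 31.7% higher and 29.7% lower in the precursors, so single calls are common and the sizes carry the description. The test scales sums by the trimmed mean of M values (TMM). Scaling by total UMIs alone moves the median gene by 0.47 on the log2 scale and gives 5080 higher and 1846 lower. The corresponding shifts are -0.52 against promyelocytes, -0.87 against B lineage cells and -0.54 between the precursors above and below their median granule share. CPM levels are on the total-UMI scale, and fold changes are on the TMM scale and relative to those shifts. The non-dividing cells were shallower, with a median of 5932, 8304 and 7764 UMIs, and a barcode with fewer UMIs is more likely to show no UMI of 4 genes. With both rules applied to counts thinned to 2000 UMIs, the non-dividing group took in 901, 1297 and 1264 barcodes in libraries 1, 2 and 3, against 713, 985 and 963 without thinning. Rises were then smaller, with log2 fold changes of 0.88 for Elane, 0.93 for Prtn3, 1.06 for Cst7, 0.95 for Fcnb, 1.17 for Gfi1, 0.65 for Cdk4, 2.14 for Cdkn2c and 0.78 for Npm1, which still passed. The fall of Mmp8 was -3.83. Over all 11268 genes tested with those rules, 2646 were higher and 2773 lower. Without the library block 2633 were higher and 1999 lower of 11002. Among barcodes of 5000 to 20000 UMIs 2623 were higher and 2791 lower of 9454. Without library 2 they were 2717 and 2475 of 11284, and without library 3 they were 2540 and 2294 of 11343.

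Primary granule transcripts at 1% or more of UMIs were found in 556 of the 3285 precursors. The median primary granule share was 0.0304%, 0.0143% and 0.0239% in the precursors of libraries 1, 2 and 3, against 0.0178%, 0% and 0.00863% in the non-dividing cells. Elane, neutrophil elastase (chr10:79886247-79888215), had 2391, 2336 and 3921 CPM in the precursors of libraries 1, 2 and 3, against 81.5, 15.05 and 32.4 CPM in the non-dividing cells. The groups do not overlap, and library 3 was highest among the precursors. The change on the log2 scale was 5.88 (SE 0.52, adjusted p = 0.000145), and 4.48 among barcodes of 5000 to 20000 UMIs. Thinned to 5000 UMIs, 43.1% ± 6.42 of the precursors had a UMI of Elane, 11.4% ± 5.81 of the non-dividing cells and 13.7% ± 7.92 of the B lineage cells, so the share in the non-dividing cells is read as background. Prtn3, proteinase 3 (chr10:79874476-79883174), changed alike (log2 5.36, SE 0.39, adjusted p = 6.53e-05), with 2347, 2317 and 3207 CPM in the precursors against 89.2, 25.0 and 42.8 in the non-dividing cells. Cst7, which encodes the protease inhibitor cystatin F, was at 29.6, 19.9 and 37.0 CPM in the precursors against 0.811, 0.459 and 0.873 in the non-dividing cells (log2 4.88, SE 0.19, adjusted p = 1.11e-05). In the primary granule list, 8 of 12 genes rose and 0 fell, with a median log2 fold change of 3.78, against 0.01 over all genes tested. Among barcodes of 5000 to 20000 UMIs 8 rose and 2 fell.

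Secondary granule genes split. Fcnb rose with 921, 1061 and 1356 CPM in the precursors against 101.2, 170 and 169 CPM in the non-dividing cells (log2 2.48, SE 0.11, adjusted p = 1.54e-05). Every precursor sum was above every non-dividing sum. Chil3, a chitinase-like lectin, rose by 0.33 on the log2 scale (SE 0.08, adjusted p = 0.0137, 0.0616 without library 3, 0.0513 with DESeq2, 0.0645 with rules on thinned counts and 0.272 without the library block), with 5665, 7101 and 6221 CPM in the precursors against 2882, 4764 and 3544 in the non-dividing cells. Mmp8, the neutrophil collagenase (chr9:7558456-7568485), was the largest fall among the 16 secondary granule genes, with 98.8, 89.7 and 102 CPM in the precursors against 1335, 1554 and 1534 in the non-dividing cells (log2 -4.39, SE 0.10, adjusted p = 7.45e-06). Both groups were tight and far apart. Lcn2, which binds bacterial siderophores (chr2:32384633-32388252), had 11091, 13514 and 14755 CPM in the precursors against 16652, 20553 and 23737 in the non-dividing cells (log2 -1.09, SE 0.06, adjusted p = 3.32e-05). Ltf, lactoferrin, is a gate gene and had 3940, 3535 and 4462 CPM in the precursors against 7957, 7345 and 8380 in the non-dividing cells. Camp was higher in CPM in the precursors of all 3 libraries while its log2 fold change was -0.09 (SE 0.05, adjusted p = 0.177), a sign that turns with the scaling. Of 16 secondary granule genes 2 rose and 13 fell, with a median of -0.99. Camp, Ngp and Ltf are among the 16, so that count is a description.

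Genes of later maturation were lower. All 10 gelatinase granule and membrane genes and all 20 genes of mature neutrophils fell, with median log2 fold changes of -2.29 and -2.37, against the background of 29.7% lower. Mmp9, gelatinase B, had 158, 149 and 148 CPM in the precursors against 1571, 1675 and 1502 in the non-dividing cells (log2 -3.84, SE 0.08, adjusted p = 7.45e-06). The range was narrow in both groups. Retnlg, a resistin-like protein of neutrophils, had 1692, 474 and 590 CPM in the precursors against 15035, 8712 and 10212 in the non-dividing cells (log2 -4.29, SE 0.23, adjusted p = 2.37e-05), with library 1 highest in both groups. Cxcr2, the chemokine receptor that brings neutrophils out of the marrow, had 19.1, 29.4 and 31.0 CPM in the precursors against 57.4, 200 and 157 in the non-dividing cells (log2 -2.72, SE 0.21, adjusted p = 9.20e-05). Fpr1, the formyl peptide receptor, fell by 3.96 on the log2 scale and Ly6g, the surface antigen used to sort neutrophils, by 2.69. S100a6 fell by 3.45 on the log2 scale, while S100a8 fell by 0.79. The oxidase and calprotectin list fell in 10 of 10 genes, and in 8 of 10 with total-UMI scaling.

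**Figure D2:**
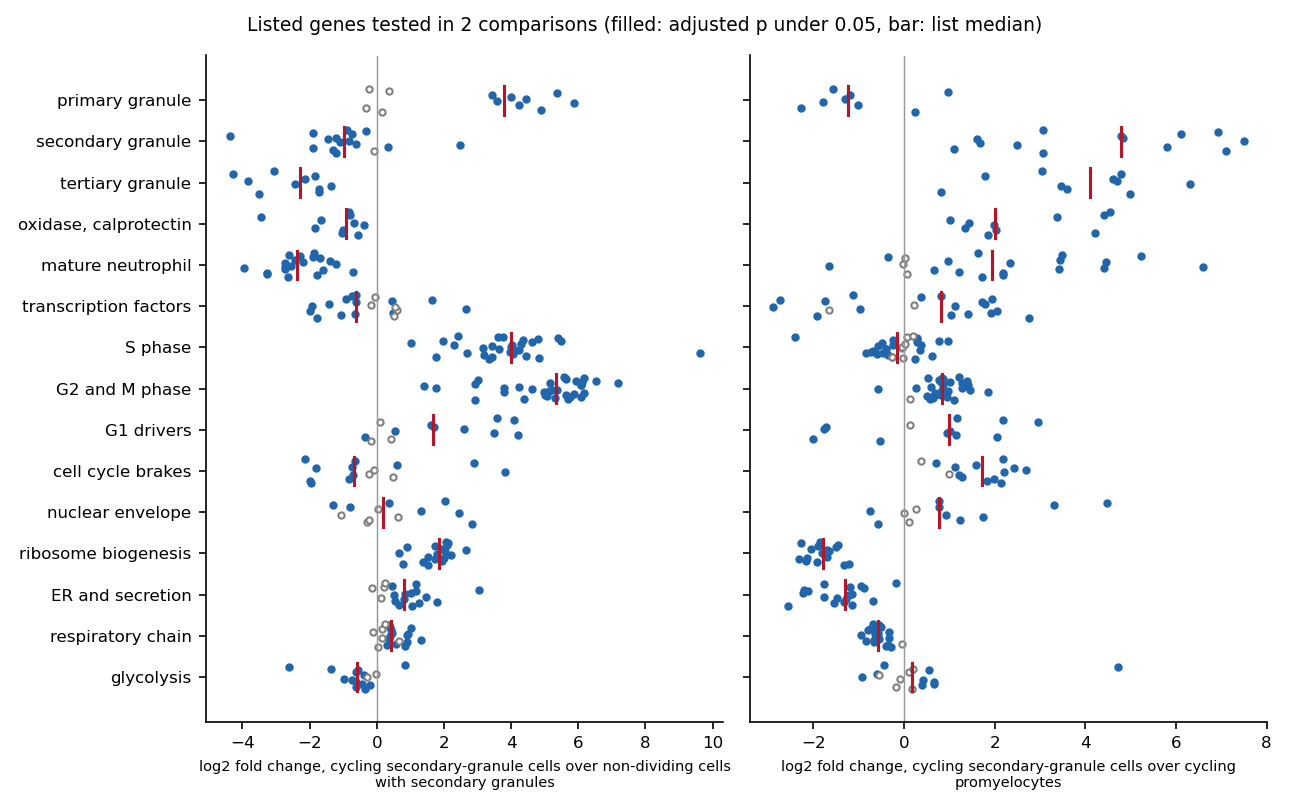
Log2 fold change of each gene of 15 lists in the precursors against non-dividing cells with secondary granules (left) and against dividing promyelocytes (right), from edgeR. Each point is a gene, filled where the adjusted p is under 0.05, red bars mark list medians, and Mpo, Elane, Prtn3, Ctsg, Camp, Ngp and Ltf are left out on the right. Ribosome biogenesis genes sit above 0 on the left (median 1.85) and below 0 on the right (median -1.79).

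Gfi1, a repressor needed for granulocyte formation, had 28.7, 29.1 and 32.0 CPM in the precursors against 2.03, 4.02 and 3.99 in the non-dividing cells (log2 2.66, SE 0.19, adjusted p = 6.53e-05). Those sums are far apart and tight. Cebpe (chr14:54710360-54712174) was higher in the precursors of each library, with 495, 769 and 785 CPM against 179, 474 and 492 in the non-dividing cells. Its log2 fold change was 0.48 (SE 0.17, adjusted p = 0.0417, adjusted p = 0.495 without the library block and adjusted p = 0.0564 with DESeq2 size factors), and library 1 was lowest in both groups. Bcl6 and Junb, transcription factors of later neutrophils, fell by 1.77 and 1.94 on the log2 scale. Myc had 7.81, 7.02 and 6.46 CPM in the precursors against 2.84, 1.61 and 0.873 in the non-dividing cells, and its log2 fold change of 1.65 became -0.01 among barcodes of 5000 to 20000 UMIs. Of 19 transcription factors tested, 4 rose and 10 fell, and without the library block 2 rose and 5 fell.

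The genes of S phase (30 of 30) and of G2 and M (34 of 34) were all higher in the precursors, a description, since division genes are in the rule. Outside those lists, Cdk4 had 50.5, 71.1 and 92.2 CPM in the precursors against 8.92, 7.81 and 8.61 in the non-dividing cells (log2 2.61, SE 0.18, adjusted p = 5.91e-05), and Cdk6 rose by 1.71. Both kinases act in G1. The groups were split by division genes, so the values of these and the following cell cycle genes are descriptions too. The brakes on the cycle split. Cdkn2c, the INK4 inhibitor p18, had 17.1, 32.4 and 26.8 CPM in the precursors against 1.01, 1.61 and 1.37 in the non-dividing cells (log2 3.80, SE 0.17, adjusted p = 1.51e-05). Cdkn2d, the INK4 inhibitor p19 (chr9:21288410-21291407), had 165, 252 and 252 CPM in the precursors against 112, 191 and 225 in the non-dividing cells, which overlap (log2 -0.09, SE 0.11, adjusted p = 0.521, and 0.37 with total-UMI scaling, adjusted p = 0.018). Btg2, an antiproliferative gene, had 207, 165 and 153 CPM in the precursors against 531, 495 and 484 in the non-dividing cells (log2 -1.995, SE 0.10, adjusted p = 1.83e-05). Rbl1, a relative of the retinoblastoma protein, rose by 2.89. Of 14 brake genes tested 3 rose and 8 fell, 5 rose and 5 fell with total-UMI scaling, and 2 rose and 4 fell without the library block.

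All 18 ribosome biogenesis genes rose, with a median of 1.85. Npm1, nucleophosmin, had 381, 368 and 404 CPM in the precursors against 110, 58.8 and 58.2 in the non-dividing cells (log2 1.95, SE 0.20, adjusted p = 0.000246). The lowest precursor sum was above the highest non-dividing sum, which was that of library 1. Chaperones and folding enzymes of the endoplasmic reticulum rose in 14 of 18 genes with 0 lower. With rules on thinned counts 3 rose and 1 fell, and Calr, the calreticulin gene, at a log2 fold change of 1.05, stood at -0.09 among barcodes of 5000 to 20000 UMIs. Respiratory chain genes rose in 14 of 20 with 0 lower, in 8 without the library block and in 7 without library 2 or without library 3. Glycolysis genes went the other way, with 1 higher and 13 lower of 16. This became 3 higher and 4 lower with total-UMI scaling, 1 and 7 without the library block, and 1 and 8 without library 2 or without library 3. Slc2a3, a glucose transporter, was among those lower (100, 49.4 and 48.1 CPM in the precursors against 329, 264 and 236 in the non-dividing cells).

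Against promyelocytes, which also divide, the precursors carried the secondary granule programme, more transcripts of the INK4 inhibitors and the cyclin Ccnd3, and less of Cdk4, Cdk6, Ccnd2 and Myc. Of 12287 genes 70.1% passed, 35.6% higher and 34.5% lower. Total-UMI scaling gave 2310 higher and 6740 lower, and without the library block 5376 passed, 2518 higher and 2858 lower. Among barcodes of 5000 to 20000 UMIs 4812 passed, 2593 higher and 2219 lower. That window kept 27, 52 and 86 promyelocytes of 277, 517 and 741 in libraries 1, 2 and 3. Their median mitochondrial share was 4.13%, 4.43% and 3.72%, against 2.91%, 3.02% and 2.67% in all promyelocytes. Promyelocytes were deeper, with a median of 29541, 37355 and 34153 UMIs. At least 2 markers of another lineage were found in 14.0%, 27.9% and 32.9% of the precursors of libraries 1, 2 and 3, against 37.2%, 59.6% and 64.0% of the promyelocytes. In the summed RNA 7 of 7 macrophage, 8 of 8 erythroid, 10 of 12 B lineage and 8 of 9 connective tissue genes were higher in the precursors, and 0, 0, 2 and 1 passed without the library block. Other lists went the other way. Of 10 monocyte genes 0 were higher and 6 lower, and of 7 eosinophil, basophil and mast cell genes 0 were higher and 2 lower. Of 7 progenitor genes 1 was higher and 5 lower. Summed monocyte genes averaged 567 CPM in promyelocytes against 152 in the precursors, and summed progenitor genes 108 against 23.9. Cells of earlier stages or other fates that meet the promyelocyte rule were not separated in the main fit. The part of other lineages in the other differences was not tested beyond the values without such barcodes.

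All 13 secondary granule genes outside the gate rose (median 4.80), as did all 10 gelatinase granule genes (median 4.10), and as relatives of the gate genes they are given as levels. Lcn2 had 11091, 13514 and 14755 CPM in the precursors against 78.2, 93.7 and 152 in promyelocytes. Fcnb, by contrast, had 921, 1061 and 1356 CPM in the precursors and was already at 284, 227 and 349 in promyelocytes. The largest rises outside the gate, by the rule for named genes, were Cstdc5 (8.68) and Stfa1 (6.89), stefin-type protease inhibitors, AA467197 (7.999), Lcn2 (7.50), Inhba (7.31), an activin subunit, Ly6g (7.29), Cd177 (7.10), a neutrophil surface glycoprotein, Orm1 (6.94), an acid glycoprotein, Chil1 (6.81) and Ifitm6 (6.70). Cstdc5 varied most between libraries, at 33.7, 523 and 197 CPM in the precursors against 0.118, 1.52 and 0.868 in promyelocytes. The largest falls were in Ass1 (-3.39), which makes argininosuccinate, BC035044 (-3.32), Ccl9 (-3.27), a chemokine, Ydjc (-2.97), F13a1 (-2.95), Fkbp11 (-2.94), Phgdh (-2.89), the first enzyme of serine synthesis, Irf8 (-2.88), Lgals1 (-2.83) and Srm (-2.83), spermidine synthase. Irf8 and F13a1 belong to the monocyte list, and Irf8 moved to -0.75 (adjusted p = 0.0671) without barcodes of another lineage. Among barcodes of 5000 to 20000 UMIs these falls were larger, as in Ass1 (-5.41), F13a1 (-5.38) and Fkbp11 (-5.72). That window held 27, 52 and 86 promyelocytes in libraries 1, 2 and 3.

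Factors of the C/EBP family differed in opposite directions. Cebpa had 15.4, 13.6 and 16.6 CPM in the precursors against 73.4, 85.9 and 89.9 in promyelocytes (log2 -1.93, SE 0.10, adjusted p = 2.64e-05). Cebpe had 495, 769 and 785 CPM in the precursors against 247, 243 and 275 in promyelocytes (log2 1.92, SE 0.12, adjusted p = 5.05e-05). No sum overlapped in either gene. Cebpd rose by 1.41 and Bcl6 by 2.75 on the log2 scale. Gfi1 fell by 0.98, Myb, a factor of immature blood cells, by 1.74 and Myc by 2.75. Cd34, a surface marker of progenitors, fell by 3.09. Of 19 factors 11 rose and 6 fell.

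**Figure D3:**
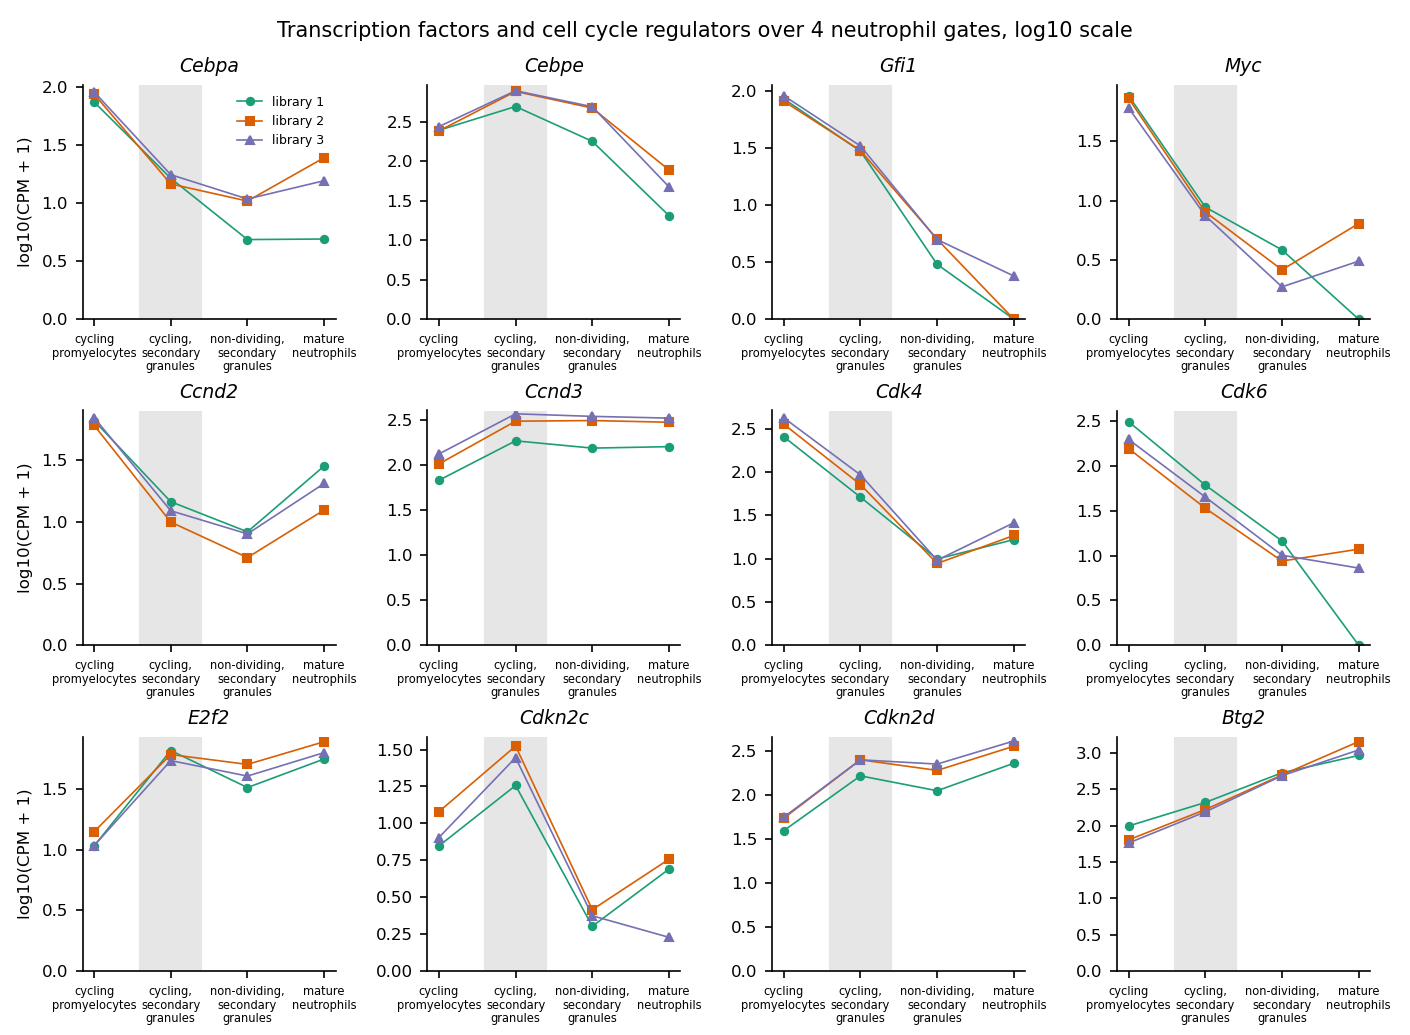
Levels of 12 transcription factors and G1 regulators along the neutrophil series, as log10(CPM + 1) of summed cells per library (points, 3 libraries). Cebpa, Gfi1, Myc, Ccnd2, Cdk4 and Cdk6 are highest in dividing promyelocytes, Cebpe is highest in the precursors (495 to 785 CPM), and Btg2 is highest in mature neutrophils.

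The D-type cyclins and their inhibitors differed between the dividing groups. Ccnd2 had 13.6, 8.95 and 11.3 CPM in the precursors against 65.1, 59.7 and 69.1 in promyelocytes (log2 -2.02, SE 0.12, adjusted p = 3.78e-05). Ccnd3 had 186, 308 and 373 CPM in the precursors against 67.1, 102 and 133 in promyelocytes (log2 2.04, SE 0.05, adjusted p = 8.59e-06). The cyclins moved opposite ways, each without overlap. Without barcodes of another lineage Ccnd2 stood at -3.34 and Cdkn2c at 3.75. Cdk4 fell by 1.77 and Cdk6 by 1.73 on the log2 scale. Cdkn2d had 165, 252 and 252 CPM in the precursors against 38.6, 53.9 and 55.4 in promyelocytes (log2 2.70, SE 0.05, adjusted p = 6.34e-06), and Cdkn2c rose by 2.21. E2f2 and E2f7, a pair of E2F family factors, rose by 2.96 and 2.18. In the list of brakes 12 of 14 rose and 0 fell, and 11 rose with total-UMI scaling.

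Of 34 G2 and M genes 32 rose and 1 fell (median 0.83), and of 30 S phase genes 9 rose and 13 fell (median -0.15), beside 35.6% higher and 34.5% lower over all genes. Both groups were chosen by division genes and differ in depth, and no difference between the lists was tested. With total-UMI scaling these became 24 higher with 3 lower, and 2 higher with 26 lower. Without the library block the S phase count was 2 higher and 7 lower. Ube2c, which marks mitotic proteins for destruction, had 538, 614 and 617 CPM in the precursors against 325, 369 and 417 in promyelocytes (log2 1.20, SE 0.06, adjusted p = 2.85e-05). Ung, the uracil-DNA glycosylase of the G1 to S step, had 4.19, 3.85 and 5.08 CPM in the precursors against 30.2, 35.4 and 34.4 in promyelocytes (log2 -2.42, SE 0.12, adjusted p = 2.20e-05). Among barcodes of 5000 to 20000 UMIs, with the few promyelocytes given above, Ube2c stood at 1.97 and Ung at -4.03. Pcna was higher on the TMM scale (log2 0.36, adjusted p = 0.00864, and 0.278 without the library block) but lower in CPM in libraries 2 and 3.

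Synthesis genes were lower. All 18 ribosome biogenesis genes and all 18 genes of the endoplasmic reticulum fell, with medians of -1.79 and -1.30, as did 19 of 20 respiratory chain genes (median -0.57). Of the respiratory chain genes 11 fell without the library block and 8 among barcodes of 5000 to 20000 UMIs. Npm1 had 381, 368 and 404 CPM in the precursors against 2251, 2358 and 2235 in promyelocytes (log2 -2.04, SE 0.06, adjusted p = 8.59e-06). Calr had 168, 152 and 193 CPM in the precursors against 1443, 1357 and 1538 in promyelocytes (log2 -2.56, SE 0.05, adjusted p = 6.34e-06). In both genes the precursors stood between promyelocytes and non-dividing cells in the main sums. For Calr the difference from non-dividing cells did not pass in 2 alternative edgeR fits. It was 0.057 (adjusted p = 0.724) with rules on thinned counts and -0.089 (adjusted p = 0.517) at 5000 to 20000 UMIs. Of 12 nuclear envelope genes 7 rose and 2 fell, and Syne1 and Syne2 were among those that rose. Syne2 was at 34.1, 48.0 and 49.5 CPM in the precursors against 1.90, 2.69 and 3.75 in promyelocytes, and Syne1 rose by 3.30 on the log2 scale. Nesprins join the nucleus to the cytoskeleton. Lbr, the lamin B receptor that shapes the neutrophil nucleus, rose by 1.24.

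B lineage cells in division (1760 barcodes) served as a dividing group of another lineage. Of 11586 genes 65% passed, 33.8% higher and 31.2% lower in the precursors, and total-UMI scaling gave 2021 higher and 7413 lower. Cebpe had 495, 769 and 785 CPM in the precursors against 4.22, 1.79 and 3.10 in the B lineage cells. Glycolysis genes rose in 14 of 16 (median 2.07) and ribosome biogenesis genes fell in 15 of 18 (median -0.89). Ung again fell, by 2.05 on the log2 scale (SE 0.13, adjusted p = 2.09e-05). S phase genes counted 2 higher and 17 lower of 30, and G2 and M genes 1 higher and 15 lower of 34, all of them lower with total-UMI scaling. Without the library block the counts were 0 higher and 10 lower for S phase and 0 and 7 for G2 and M. Over all 11586 genes they were then 3014 higher and 2567 lower. Without library 2 the S phase count was 0 and 11, beside 3249 higher and 2537 lower of 11744 genes. These comparisons share the precursor sums, so they are not independent of each other.

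Among the precursors, primary granule RNA was lower where the secondary granule share was larger. Members were placed in 4 bins of that share, 1 to 4%, 4 to 8%, 8 to 12% and 12% or more, with 381, 504, 1146 and 1254 members. Summed primary granule RNA averaged 31088 ± 5942, 15992 ± 3823, 4886 ± 755 and 2311 ± 404 CPM along the bins (SD, n = 3 libraries). S phase RNA fell along the same bins (3136 ± 378, 2630 ± 221, 2121 ± 157 and 1438 ± 161 CPM), while G2 and M RNA averaged 6489 ± 724, 7329 ± 693, 8144 ± 889 and 8572 ± 1219 CPM, with neighbouring bins within their spread. Ribosome biogenesis RNA averaged 2543 ± 461, 1323 ± 210, 515 ± 53.1 and 331 ± 52.8 CPM. Cdk4 averaged 187, 104, 44.98 and 21.5 CPM and Ccnd2 34.4, 21.7, 4.30 and 1.21 CPM. Against these, Cdkn2d averaged 123 ± 37.7, 179 ± 39.8, 247 ± 54.6 and 274 ± 66.5 CPM, and Ccnd3 stayed between 245 and 308 CPM with SDs of 74.0 to 107. Fcnb averaged 1121 ± 220, 1256 ± 204, 1185 ± 232 and 941 ± 292 CPM, lowest in the last bin, with neighbouring bins within their spread. Bins share the UMIs of Camp, Ngp and Ltf in their denominator, so these are descriptions.

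**Figure D4:**
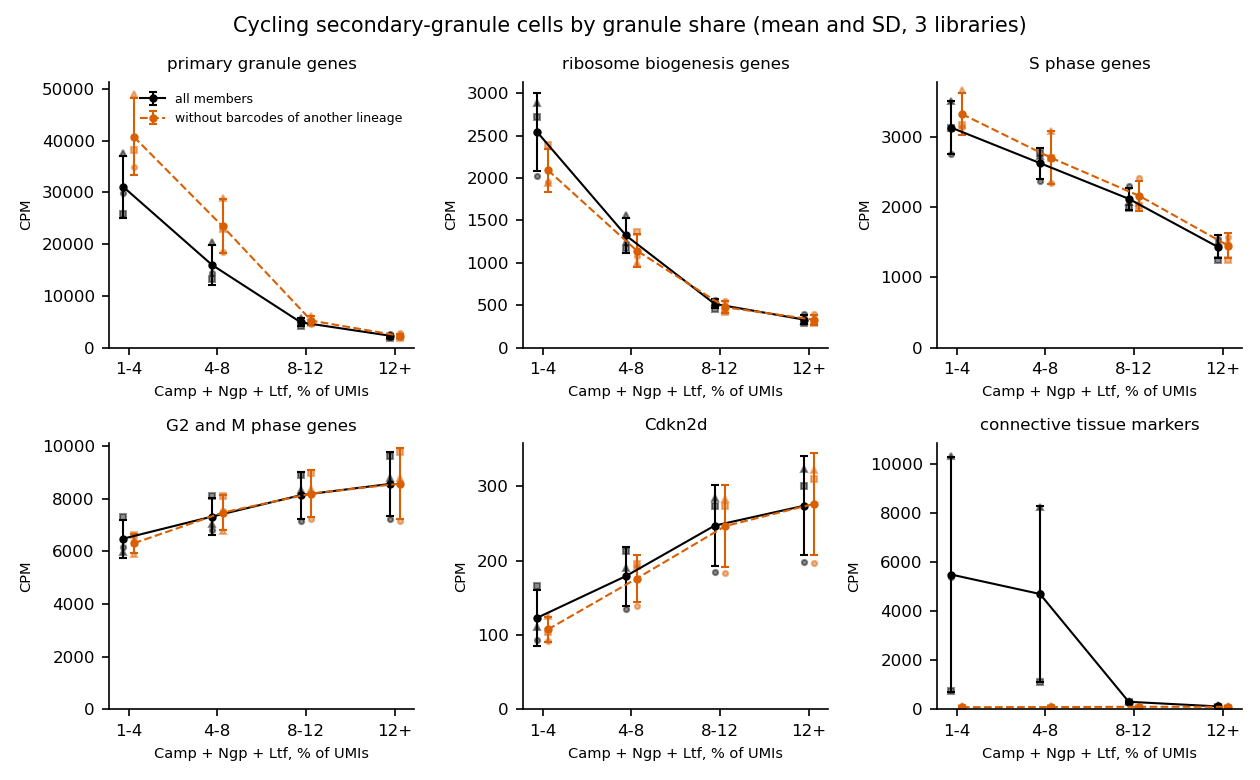
Summed levels (CPM, mean and SD of 3 libraries) in precursors binned by the share of Camp, Ngp and Ltf in their UMIs, for all members and for members without markers of another lineage. Primary granule, ribosome biogenesis and S phase RNA are lower in each further bin, Cdkn2d is higher, and connective tissue RNA is high in the first and second bin of all members (5490 and 4697 CPM) and low without the marked barcodes (76.7 and 82.3 CPM).

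The primary and secondary programmes overlapped in single barcodes. In 556 members (16.5%, 13.9% and 20.2% in libraries 1, 2 and 3) the primary granule share was 1% or more, so they met the cut for both classes, with a median secondary share of 3.90% and a median of 30366 UMIs. In 1056 members it was under 0.01%, with a median secondary share of 12.03% and 17923 UMIs. Doublets were not removed, and the markers of another lineage include no neutrophil list. Whether barcodes with both classes hold single cells was not tested.

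Split at the median share within each library, members above it and members at or below it were compared directly. The split uses the Camp, Ngp and Ltf share of the rule itself. Those genes were left out of the fits, and the calls and adjusted p-values below describe that split. Of 10954 genes 54% passed, 27.4% higher and 26.5% lower. Without the library block 2365 passed (841 higher, 1524 lower), without barcodes of another lineage 3879 passed, among barcodes of 5000 to 20000 UMIs 872 passed, and total-UMI scaling gave 492 higher and 6667 lower. Where barcodes were left out, the median was set anew and the sides lay closer. Members at or below it had a median share of 7.69%, 7.51% and 7.54% in the main fit. This was 8.68%, 9.88% and 10.1% without barcodes of another lineage, and 10.1%, 9.84% and 10.3% at 5000 to 20000 UMIs. Mpo, myeloperoxidase (chr11:87793581-87804413), had 54.6, 27.8 and 41.7 CPM above the median against 1820, 1433 and 2562 at or below it (log2 -5.01, SE 0.15, adjusted p = 3.99e-06). Cdkn2d had 197, 297 and 322 CPM above the median against 142, 219 and 200 at or below it (log2 1.09, SE 0.08, adjusted p = 4.69e-05). It was higher in each library although the ranges overlap. Members above the median were shallower, with a median of 17132, 19772 and 17525 UMIs, against 22071, 26041 and 23484 at or below it. Ribosome biogenesis genes fell in 18 of 18 (median -1.40), and in 6 of 16 among barcodes of 5000 to 20000 UMIs. G2 and M genes rose in 33 of 34, but in 8 without the library block in 15 among barcodes of 5000 to 20000 UMIs, and in 7, with 1 lower, under total-UMI scaling. S phase genes rose in 1 and fell in 17 of 30, in 0 and 2 without the library block, in 0 and 4 without library 3, in 1 and 10 without library 2, and in 0 and 25 without barcodes of another lineage. Ung was at 0.148, 0.647 and 0.322 CPM above the median against 7.14, 6.24 and 8.63 at or below it (log2 -3.53, SE 0.37, adjusted p = 0.000234). Fcnb did not pass (log2 0.19, SE 0.10, adjusted p = 0.146), and its sign turned with total-UMI scaling (-0.37, adjusted p = 0.009) and without barcodes of another lineage (-0.32, adjusted p = 0.0013).

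Transcripts of other cell types accompany part of the precursors. At least 2 markers of another lineage with 2 UMIs each were found in 96, 363 and 428 members, 14.0%, 27.9% and 32.9%, against 6.31%, 8.32% and 11.9% of the non-dividing cells, which are shallower. Connective tissue markers (Col1a1, Acan, Cxcl12 and 6 more) were found in 8.89%, 4.46% and 20.9%, and summed to 460 to 3361 CPM in the precursors, 438 to 1537 in promyelocytes and 1407 to 3676 in non-dividing cells. Nucleus pulposus markers (Krt8, Krt18, Krt19 and T) were found in 13, 4 and 0 members (0 of 1300 allows up to 0.283%, exact binomial) and summed to 1.13 to 31.6 CPM. Haemoglobin RNA ranged from 559 CPM in library 1 to 11920 CPM. Connective tissue RNA averaged 5490, 4697, 298 and 110 CPM along the 4 bins of secondary share. All 9 connective tissue, 8 erythroid and 9 monocyte genes tested fell above the median, 5, 0 and 4 without the library block. Doublets were not removed, and Scrublet at a preset rate would take 11.5%, 22.4% and 20.8% of the members. The part of these barcodes in each result was not tested beyond the values without them: without them Elane in the non-dividing comparison stood at 5.84, Cebpe against promyelocytes at 1.72 and Cdkn2d at 3.18, and primary granule RNA along the bins averaged 40750, 23446, 5205 and 2271 CPM.

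**Figure D5:**
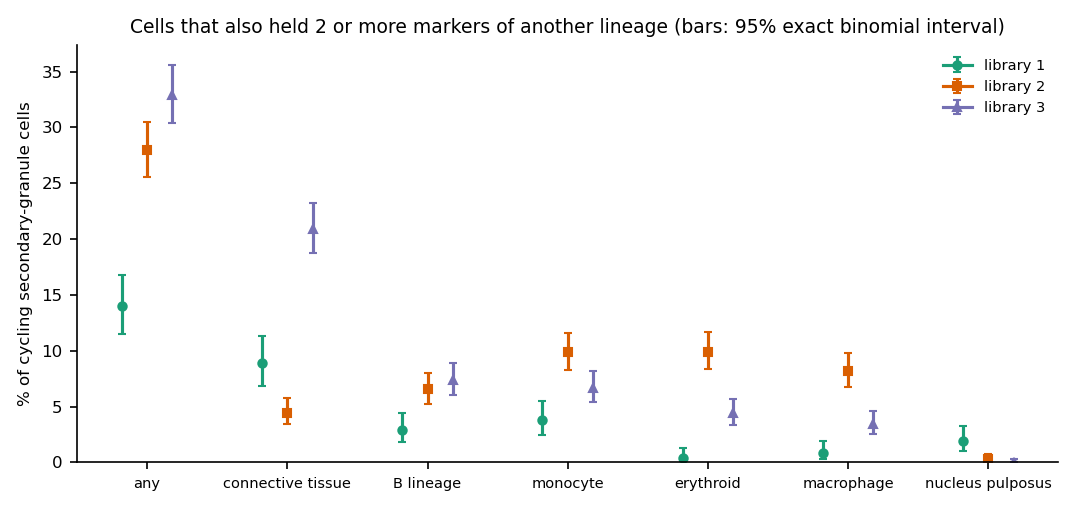
Percent of precursors with at least 2 markers of another lineage, per lineage and library, with 95% Clopper-Pearson intervals. Connective tissue markers reach 20.9% in library 3, and nucleus pulposus markers are found in 0 members there.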

How the data were processed

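Cells were profiled with 10x Genomics 3' chemistry in 3 libraries, each from pooled littermates, per the labels' protocols. The authors deposited raw UMI counts per gene and barcode. The submitters' processing notes list Cell Ranger 3.0.2, Seurat 4 and mm10, with no role given, while software version 3.0.1 (library 1) and 6.0.0 (libraries 2 and 3) stands in the file headers. Alignment and counting settings are not given in the sources used here. The tables share 30406 genes, with 99.9% of library 1's UMIs and 99.6% in libraries 2 and 3. Kept barcodes had 500 or more genes and mitochondrial UMIs up to 15% (5732, 10792 and 10374 of 7430, 11767 and 11032). Members, comparison groups and gene lists were chosen with earlier results of these data known.

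UMI counts were summed per library and group and tested with edgeR 4.0.16 (R 4.3.3; quasi-likelihood test after filterByExpr and TMM scaling). Each fit had the library as a block and Benjamini-Hochberg adjustment over all genes tested. Both sums of a comparison come from the same 3 pools, and their deviations from the group means correlated at 0.442 to 0.779 within libraries. Levels are UMIs per 1000000 UMIs (CPM). Genes named for size are the 10 that rose most and the 10 that fell most among those that passed, moved 1 way in 3 of 3 libraries and reached 50 CPM in the higher sum, without gate, mitochondrial, ribosomal, haemoglobin, immunoglobulin and unnamed genes. From each list up to 3 genes each way were taken, and the 20 most abundant genes. Genes described outside that rule, such as Ung, Calr and the inhibitor genes, were chosen after their values were seen. On simulated counts for the non-dividing comparison (11006 genes), 29.9% of 1.5-fold, 79.1% of 2-fold and 100% of 4-fold changes were recovered. The changed genes (67, 67 and 66) were drawn from those with a fitted mean of at least 50 counts. All other genes were left unchanged, unlike in the data. Recovery at lower counts or with most genes changed was not tested. Doublets were not removed, and Scrublet (scanpy 1.11.5) served as an alternative. DESeq2 1.42.0, other scalings and filters, other gates and single libraries left out were also tried. Promoters are from the RefSeq table of GRCm38.p6, shortened to end before the annotated start.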

Additional observations from a re-analysis of the deposited data

Results flagged for a closer look

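Barcodes left out for having under 500 genes or over 15% mitochondrial UMIs also held a few with the transcripts of the precursors. In library 1, 14 such barcodes met the gene criteria, in library 2, 8 did and in library 3, 6 did. Of these 28 barcodes, among 3331 left out, 21 were over the mitochondrial limit. Their median was 1054.5 UMIs and 19.1% mitochondrial UMIs. They enter no comparison.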

How the results depend on the processing

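The mean share of precursors, 12.2% of kept barcodes, was 11.1% with at least 3 of 4 division genes, 11.7% with a secondary share of at least 2%, 10.8% after removal of Scrublet scores at a preset rate, 11.2% at Scrublet's own threshold, 9.12% without barcodes of another lineage 11.88% at 5000 to 20000 UMIs and 7.0004% with rules on thinned counts. It was 12.002% to 12.3% without single libraries. Without the library block, which holds the pairing of the sums, 5376 genes passed against promyelocytes and 2365 between members above and below the median share. Leaving the block out ended the calls of Chil3 and Cebpe against non-dividing cells and of Pcna against promyelocytes, and changed no other call among 80 gene results. Among barcodes of 5000 to 20000 UMIs these counts were 4812 and 872, and without barcodes of another lineage the second was 3879. That depth window kept 27, 52 and 86 promyelocytes, and the median share was set anew in both settings. Leaving out single libraries gave 4834 to 7825 genes against non-dividing cells, 6941 to 9162 against promyelocytes, 5786 to 8662 against B lineage cells and 4040 to 6608 across the median. Without a filter on low counts, 4079 were higher and 2808 lower against non-dividing cells, and 3112 higher and 3744 lower across the median.

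Of 80 gene results 71 kept direction and call under every alternative run. Against non-dividing cells Camp turned to 0.064 without a filter on low counts, 0.37 with total-UMI scaling, 0.0059 after Scrublet at the preset rate, 0.011 without barcodes of another lineage and 0.15 at 5000 to 20000 UMIs. Cdkn2d turned to 0.072 without a filter, 0.37 with total-UMI scaling, 0.35 with rules on thinned counts and 0.23 at 5000 to 20000 UMIs, and ranged between -0.18 and 0.069 without single libraries, the positive value being that without library 3. At that depth Calr stood at -0.089 and Myc at -0.0053. Pcna against promyelocytes turned to -0.16 with total-UMI scaling. Fcnb across the median turned to -0.37 with total-UMI scaling, -0.28 after Scrublet at the preset rate, -0.10 at its own threshold, -0.32 without barcodes of another lineage and -0.020 at 5000 to 20000 UMIs. The cause was not tested. Total-UMI scaling, the depth window, Scrublet's own threshold and leaving out shared barcodes were chosen after seeing the data. Depth limits the rule itself, since a barcode of few UMIs seldom shows 2 division genes.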
